A study of Homo sapiens with 6 samples.

Results

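The genes described here encode the core of the human small-RNA pathway. They are 10 genes, DROSHA, DGCR8, XPO5, DICER1, TARBP2, AGO1, AGO2, AGO3, TNRC6A and TNRC6B, which were chosen by symbol for their roles in hairpin processing, export, Argonaute loading and silencing. All 10 were in the deposited count table of 28008 genes. All 10 also passed the filter on low counts, which kept 14292 genes for testing.

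The cells were DU-145-DR, made from DU-145, a human prostate cancer line, by selection for resistance to docetaxel (DTX), and they carried a MUC1 short hairpin RNA under doxycycline (DOX) control in the pLKO-tet-puro vector after selection in puromycin. DOX-negative libraries came from 3 cultures given 0.1% DMSO vehicle, and DOX-positive libraries came from 3 cultures given 500 ng/ml DOX, which switches the hairpin on. The treatment labels name the hairpin for DOX-positive samples and DTX resistance for DOX-negative samples, so that both groups are the same hairpin-carrying line is taken from the titles and the study. No library with DOX and a control hairpin was analysed here, so silencing of MUC1, production of a hairpin and exposure to DOX cannot be told apart. Beyond growth in triplicate, nothing in the labels says how the cultures were separated, so the p-values measure the spread between these libraries, which may be partly technical.

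MicroRNAs are cut from long nuclear primary transcripts by the Microprocessor, in which DROSHA is the RNase III enzyme and DGCR8 its hairpin-binding partner. Exportin-5 (XPO5) carries the resulting hairpins to the cytoplasm, where DICER1, helped by the double-stranded RNA-binding proteins TRBP (TARBP2) and PACT (PRKRA), trims them to short duplexes. An Argonaute protein (AGO1 to AGO4) keeps a single strand of the duplex as a guide and binds a GW182 protein (TNRC6A to TNRC6C), which recruits deadenylases to the target mRNA. A short hairpin RNA expressed from a pLKO-type vector is made already folded by RNA polymerase III, so it needs no DROSHA cut but uses the same export, dicing and loading steps.

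Library totals ran from 15092691 to 23243713 counts. MUC1, the target of the hairpin, counted 387, 484 and 396 without DOX against 75, 74 and 66 with it, and was at 17.6% of its DOX-negative level (log2 fold change -2.52, SE 0.146, edgeR adjusted p 4.47e-11). The summed level of 5 epithelial markers (KRT8, KRT18, KRT19, EPCAM and CDH1) was between 758 and 838 CPM (counts scaled to a library of fixed size) in DOX-negative libraries and between 1444 and 1517 CPM in DOX-positive libraries, and all 5 were higher with DOX. For 5 markers of immune, endothelial and fibroblast cells the sum was between 4.55 and 5.28 CPM without DOX and between 4.31 and 6.06 CPM with DOX, with CD3E at 0 counts everywhere. The part of the change in epithelial genes in the results below was not tested. In bulk RNA, fewer cells of a kind and less RNA per cell cannot be told apart.

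With DOX, 6 of the 10 genes changed at an adjusted p under 0.05, which was 3 higher (DGCR8, DICER1 and TNRC6B) and 3 lower (DROSHA, XPO5 and TNRC6A). Over all genes tested, 26.7% passed the same threshold, 13.0% higher and 13.7% lower. The CPM values of the 2 groups did not overlap for the same 6 genes, against 39.8% of all genes tested. The median log2 fold change of the 10 genes was -0.015, and that of all genes tested was -0.0034. Fitted folds ran from 0.651 for TNRC6A to 1.504 for DICER1. By absolute log2 fold change TNRC6A exceeded 89.9% of genes tested, DROSHA 89.2%, DICER1 89.0%, DGCR8 84.6%, TNRC6B 76.8% and XPO5 72.3%. The deposited TPM, a unit that divides counts by transcript length and sets every library to the same sum, were shifted downwards in DOX-positive libraries. In these values 5 short noncoding RNAs held from 34.4% to 62.8% of a DOX-negative library and from 60.5% to 64.4% of a DOX-positive library. On that scale, as log2(TPM + 1), DROSHA alone of the 6 passed (-0.97, limma adjusted p 0.0287), and TNRC6B lost its direction (-0.011). DGCR8 was at 0.085 (limma adjusted p 0.845), DICER1 at 0.19 (limma adjusted p 0.656), XPO5 at -0.70 (limma adjusted p 0.178) and TNRC6A at -0.94 (limma adjusted p 0.0584). The median of all genes was itself at -0.34 there, and relative to it DGCR8 was at 0.42, DICER1 at 0.52, TNRC6B at 0.33, XPO5 at -0.36 and TNRC6A at -0.60. On TPM rescaled without these 5 RNAs, 5 of the 6 genes passed, and TNRC6B was at 0.35 (limma adjusted p 0.0643).

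**Figure D1:**
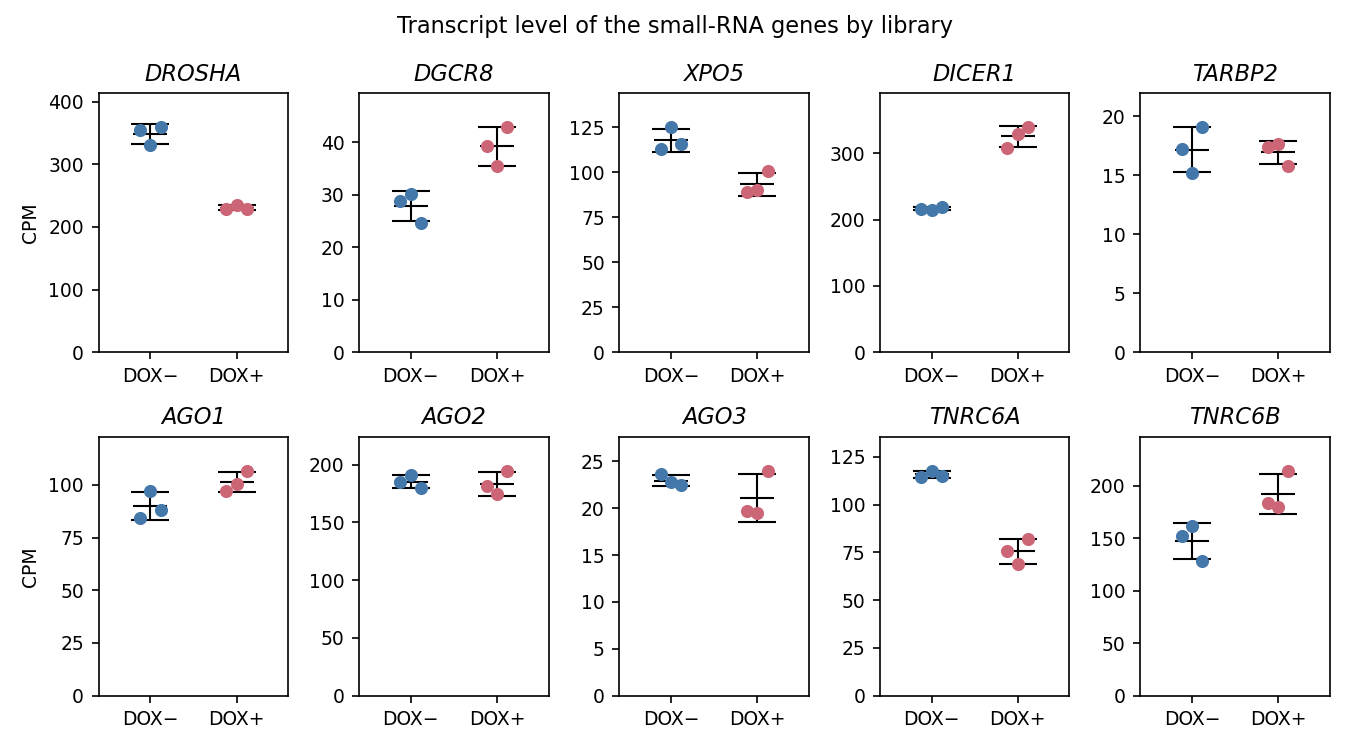
Level of each of the 10 small-RNA genes in CPM (TMM-scaled, linear axes from 0) in the 3 DOX-negative and 3 DOX-positive libraries, with the mean (long bar) and SD (short bars). On this scale DROSHA, XPO5 and TNRC6A lie lower with DOX without overlap, and DGCR8, DICER1 and TNRC6B lie higher without overlap. The groups overlap for TARBP2, AGO1, AGO2 and AGO3. As log2(TPM + 1) of the deposited values, DROSHA alone of the 10 genes passed. There DGCR8 was at 0.085, DICER1 at 0.19 and TNRC6B at -0.011. On TPM rescaled without 5 short noncoding RNAs, 5 of the 10 genes passed, without TNRC6B.

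The Microprocessor genes moved in opposite directions on the count scale, while on that of the deposited TPM DGCR8 was at 0.085 and did not pass. On TPM rescaled without 5 short noncoding RNAs, DROSHA was at -0.62 (limma adjusted p 0.000148) and DGCR8 at 0.45 (limma adjusted p 0.0216). DROSHA (chr5:31400497-31532196, minus strand, GRCh38) was at 355, 330.3 and 359 CPM in DOX-negative libraries and at 228, 235 and 228 CPM in DOX-positive libraries. Every DOX-positive library lay below every DOX-negative library, and the DOX-positive values were close to each other. The mean fell from 348 ± 15.7 to 230.5 ± 3.93 CPM (SD, n = 3 each), or to 66.2%, and the log2 fold change was -0.60 (edgeR SE 0.0607, adjusted p 1.86e-07).

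DGCR8 (chr22:20080232-20111877, plus strand) was at 28.7, 30.1 and 24.6 CPM without DOX and at 39.3, 35.5 and 42.9 CPM with DOX. All 3 DOX-positive libraries were above all 3 DOX-negative ones. The mean rose from 27.8 ± 2.86 to 39.2 ± 3.69 CPM (SD, n = 3 each), or to 141%, and the log2 fold change was 0.49 (edgeR SE 0.0974, adjusted p 0.000607). DGCR8 exons overlap those of TRMT2A on the opposite strand, which had between 344 and 605 counts a library, and whether the counting used strand is not stated.

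On the TPM scale, which divides by length, DROSHA exceeded DGCR8 in every library. The gene lengths used for the deposited TPM are not given in the sources used here, and comparisons between genes depend on them. The ratio of DROSHA to DGCR8 TPM within a library, a quantity picked after the values were seen and so given with no test, was 10.1, 8.91 and 11.9 without DOX and 4.72, 5.38 and 4.32 with DOX. The mean ratio was 10.3 ± 1.48 without and 4.81 ± 0.534 with DOX (SD, n = 3 each), with no overlap between groups.

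The DGCR8 gene itself carries microRNA hairpins in its exons, and as background the Microprocessor is known to cleave hairpins in the DGCR8 mRNA. The mature microRNAs that RefSeq (GRCh38.p14) places there are shown since they mark where these hairpins lie, with the seed, bases 2 to 8, in capitals. They lie on the plus strand at chr22:20085797-20085818, chr22:20086072-20086093 and chr22:20086112-20086129, in that order.
hsa-miR-3618: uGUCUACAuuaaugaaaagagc
hsa-miR-1306-5p: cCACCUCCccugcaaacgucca
hsa-miR-1306-3p: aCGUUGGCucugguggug
The seeds of the 3 sequences differ. The microRNA genes MIR3618 and MIR1306 had 0 counts in all 6 libraries. Poly(A)-selected libraries of this type do not measure mature microRNAs, so these counts give no level for them. The part of the lower DROSHA level in the higher DGCR8 level was not tested.

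XPO5 (chr6:43522330-43576075, minus strand), the export receptor for small hairpins, was at 113, 125 and 116 CPM without DOX and at 89.4, 90.2 and 101 CPM with DOX. The highest DOX-positive library stayed below the lowest DOX-negative library. The mean fell from 118 ± 6.33 to 93.4 ± 6.37 CPM (SD, n = 3 each), or to 79.2%, and the log2 fold change was -0.34 (edgeR SE 0.0714, adjusted p 0.00116). XPO5 exons overlap those of POLR1C on the opposite strand, which had between 456 and 731 counts a library.

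DICER1 (chr14:95086228-95158010, minus strand), the cytoplasmic RNase III, was at 216, 215 and 219 CPM without DOX and at 309, 329 and 339.5 CPM with DOX. The DOX-negative values were close together, and every DOX-positive library was higher. The mean rose from 217 ± 2.13 to 326 ± 15.7 CPM (SD, n = 3 each), or to 150.5%, and the log2 fold change was 0.59 (edgeR SE 0.0609, adjusted p 2.24e-07). The antisense gene DICER1-AS1 on the opposite strand had between 16 and 46 counts a library, against at least 3920 for DICER1.

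A microRNA gene, MIR3173, lies in an intron of DICER1 on the same strand, and its products are shown for the same reason as those of DGCR8, with seeds in capitals, at chr14:95137961-95137982 and chr14:95137923-95137944.
hsa-miR-3173-5p: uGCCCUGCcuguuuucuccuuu
hsa-miR-3173-3p: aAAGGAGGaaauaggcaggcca

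The RNase III genes changed in opposite directions on the count scale, and DICER1 and XPO5 did so as well, while on that of the deposited TPM neither DICER1 (0.19) nor XPO5 (-0.70) passed. On TPM rescaled without 5 short noncoding RNAs, DICER1 was at 0.56 (limma adjusted p 0.000653) and XPO5 at -0.35 (limma adjusted p 0.0141). The ratio of DICER1 to DROSHA TPM within a library was 0.303, 0.325 and 0.305 without DOX and 0.675, 0.700 and 0.744 with DOX. For DICER1 to XPO5 the ratio was 0.920 ± 0.0532 without and 1.75 ± 0.0726 with DOX (SD, n = 3 each). Neither ratio overlapped between groups, and both were picked after the values were seen and carry no test.

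TARBP2 (chr12:53500921-53506431, plus strand), which encodes the Dicer partner TRBP, was at 17.2, 15.2 and 19.1 CPM without DOX and at 17.4, 17.6 and 15.8 CPM with DOX. The groups overlapped, and the log2 fold change was -0.016 with a 95% interval from -0.25 to 0.22 (edgeR adjusted p 0.935). PRKRA, which encodes the related Dicer partner PACT and is not among the 10 genes, had 702, 621 and 816 counts without DOX and 600, 578 and 369 with DOX. Its mean fell from 37.0 ± 4.64 to 27.0 ± 2.80 CPM (SD, n = 3 each) without overlap, and the log2 fold change was -0.45 (edgeR SE 0.103, adjusted p 0.00238). Whether PRKRA changed more than TARBP2 was not tested.

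**Figure D2:**
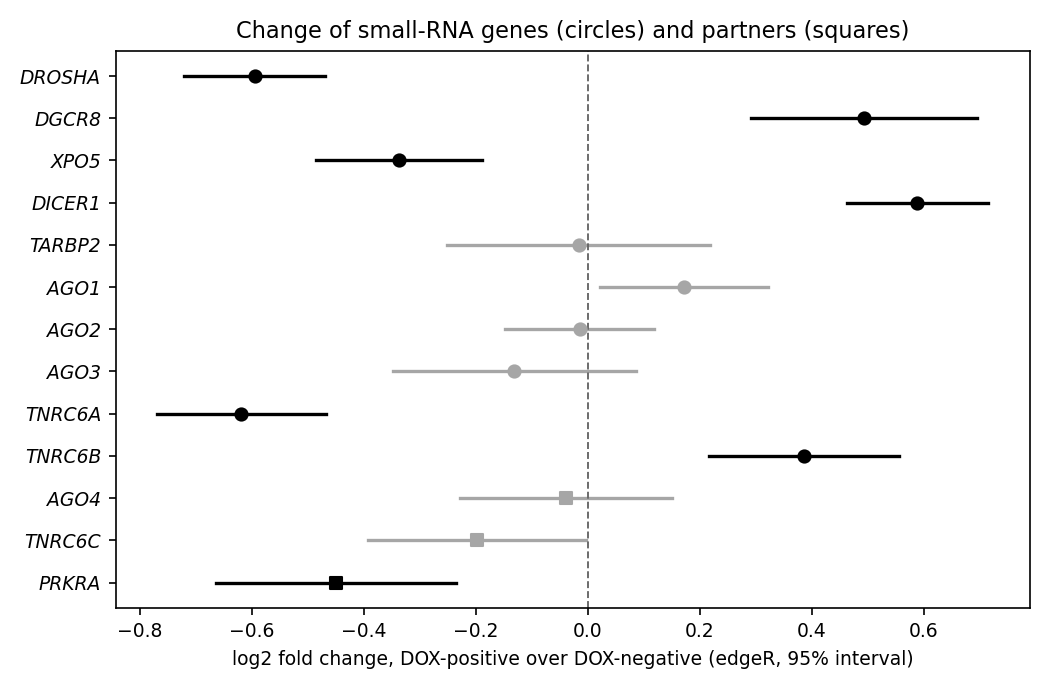
Log2 fold change of DOX-positive over DOX-negative libraries from edgeR, with 95% intervals, for the 10 small-RNA genes (circles) and the related genes AGO4, TNRC6C and PRKRA (squares); black marks an adjusted p under 0.05. TNRC6A (-0.62), DROSHA (-0.60), PRKRA (-0.45) and XPO5 (-0.34) lie below 0 and DICER1 (0.59), DGCR8 (0.49) and TNRC6B (0.39) above it. As log2(TPM + 1) of the deposited values, DROSHA alone of these genes passed. The median of all genes was -0.34 there, and TNRC6B was at -0.011, or 0.33 relative to that median. On TPM rescaled without 5 short noncoding RNAs, PRKRA and 5 of the 10 small-RNA genes passed, without TNRC6B.

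None of the Argonaute genes AGO1, AGO2 and AGO3 passed the threshold. AGO2, the Argonaute that can cut a fully matched target, was at 185, 191 and 179 CPM without DOX and at 181, 174 and 195 CPM with DOX. The groups overlapped around means of 185 ± 5.88 and 183 ± 10.4 CPM (SD, n = 3 each). The log2 fold change was -0.014 with a 95% interval from -0.15 to 0.12 (edgeR adjusted p 0.898).

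AGO1 (chr1:35869808-35930528, plus strand) was at 84.4, 97.3 and 88.3 CPM without DOX and at 97.2, 101 and 107 CPM with DOX. The highest DOX-negative library was just above the lowest DOX-positive library. The log2 fold change was 0.17 with a 95% interval from 0.021 to 0.32, and the edgeR adjusted p was 0.0846. Without DOX-negative replicate 2 the log2 fold change was 0.23 with an edgeR adjusted p of 0.0288, and on the deposited TPM scale it was -0.21. On TPM rescaled without 5 short noncoding RNAs it was 0.15 (limma adjusted p 0.256).

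AGO3 (chr1:35930718-36072500, plus strand), the next gene after AGO1 on chromosome 1, was at 23.6, 22.8 and 22.5 CPM without DOX and at 19.7, 19.5 and 24.0 CPM with DOX. DOX-positive replicate 3 was the highest of all 6 libraries and the other two DOX-positive libraries the lowest. The log2 fold change was -0.13 with a 95% interval from -0.35 to 0.085 (edgeR adjusted p 0.386). The fourth Argonaute gene, AGO4 (chr1:35808172-35857890, plus strand), had a mean of 35.1 ± 2.47 CPM without DOX and of 34.1 ± 2.94 CPM with it (SD, n = 3 each). Its log2 fold change of -0.039 had a 95% interval from -0.23 to 0.15 (edgeR adjusted p 0.800).

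Within the Argonaute family the make-up was read on the TPM scale as each gene's share of the summed TPM of AGO1 to AGO4 in the same library, which does not depend on library scaling. AGO2 held 34.9 ± 0.582% without and 33.9 ± 1.02% with DOX (SD, n = 3 each), and an exact permutation test (two-sided, 3 against 3) gave a p of 0.3, adjusted to 0.3 over the 2 share tests run. AGO1 held 31.6%, 34.1% and 33.4% without DOX and 36.4%, 37.0% and 36.3% with DOX. This was the Argonaute whose share did not overlap between groups, an observation made after the values were seen. AGO3 held 18.4 ± 0.938% and 16.4 ± 1.16%, and AGO4 held 13.7 ± 0.402% and 13.1 ± 1.39%, in the same order of groups. After the deposited TPM were rescaled without 5 short noncoding RNAs, the 4 genes summed to 95.9 ± 6.09 TPM without and 96.1 ± 5.92 TPM with DOX (SD, n = 3 each).

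The GW182 genes TNRC6A and TNRC6B moved in opposite directions on the count scale, while on that of the deposited TPM TNRC6B was near 0. On TPM rescaled without 5 short noncoding RNAs, TNRC6A was at -0.62 (limma adjusted p 0.00127). TNRC6A (chr16:24610209-24827632, plus strand) was at 114, 118 and 115 CPM without DOX and at 75.5, 69.0 and 81.8 CPM with DOX. Every DOX-positive library was far below the DOX-negative values, which were close together. The mean fell from 116 ± 1.72 to 75.4 ± 6.41 CPM (SD, n = 3 each), or to 65.2%, and the log2 fold change was -0.62 (edgeR SE 0.0726, adjusted p 1.38e-06).

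TNRC6B (chr22:40044817-40335808, plus strand) was at 152, 162 and 128 CPM without DOX and at 184, 179.75 and 214 CPM with DOX. DOX-negative replicate 3 was the lowest and DOX-positive replicate 3 the highest, and the groups did not overlap. The mean rose from 147 ± 17.3 to 193 ± 19.0 CPM (SD, n = 3 each), or to 131%, and the log2 fold change was 0.39 (edgeR SE 0.0818, adjusted p 0.00119), against -0.011 on the deposited TPM scale and 0.35 (limma adjusted p 0.0643) on TPM rescaled without 5 short noncoding RNAs. TNRC6C, the remaining GW182 gene, was at 36.4 ± 1.65 CPM without and 31.6 ± 3.64 CPM with DOX (SD, n = 3 each). Its log2 fold change of -0.20 had a 95% interval from -0.39 to -0.0039 (edgeR adjusted p 0.124), and leaving out DOX-positive replicate 1 gave -0.30 (edgeR adjusted p 0.0375).

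As a share of the summed TPM of TNRC6A to TNRC6C, TNRC6A held 52.2%, 51.8% and 55.9% without DOX and 39.0%, 38.6% and 39.1% with DOX. The difference in mean share was -14.4 percentage points, with no overlap between groups, and the exact permutation test (two-sided, 3 against 3) gave a p of 0.1, the smallest that this design allows, adjusted to 0.2 over the 2 share tests. TNRC6B held 31.6 ± 2.25% without and 46.3 ± 1.82% with DOX (SD, n = 3 each), so it lay below TNRC6A in every DOX-negative library and above it in every DOX-positive library. This order depends on the gene lengths used for the TPM. TNRC6C held 15.1 ± 0.224% and 14.8 ± 1.78%. The rescaled TPM of the 3 genes summed to 65.1 ± 4.78 without and 57.1 ± 4.64 with DOX (SD, n = 3 each), and these sums overlapped.

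**Figure D3:**
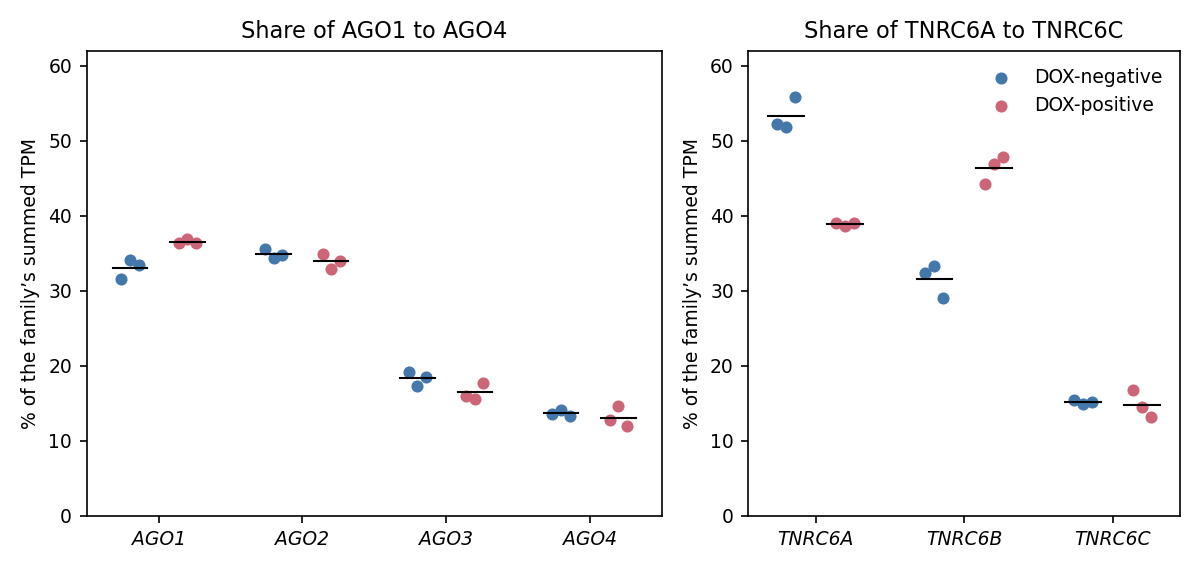
Share of each Argonaute gene (left) and each GW182 gene (right) in the summed TPM of its family, in percent on axes from 0; points are libraries and bars are means. TNRC6A goes from 53.3% to 38.9% and TNRC6B from 31.6% to 46.3% with DOX, while AGO2 is at 34.9% and 33.9%. The size of a share depends on the gene lengths used for the TPM, which are not given.

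Levels were compared between genes on the rescaled TPM scale only, and are given as mean ± SD over the 3 libraries of a group. The order of genes depends on the gene lengths used for the deposited TPM, which are not given. In DOX-negative libraries DROSHA was the highest of the 10 genes and the related AGO4, TNRC6C and PRKRA, at 172 ± 5.12 TPM. Below it came XPO5 at 58.2 ± 4.19 TPM, DICER1 at 53.4 ± 0.840 TPM and PRKRA at 47.4 ± 5.001 TPM. These steps in the order exceeded the range of the libraries, since the lowest library of each gene was above the highest library of the next.

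Below these genes the DOX-negative order was TNRC6A at 34.6 ± 1.24 TPM, AGO2 at 33.5 ± 1.89 TPM, AGO1 at 31.7 ± 2.83 TPM and TARBP2 at 25.9 ± 2.28 TPM. It went on with TNRC6B at 20.6 ± 2.92 TPM, AGO3 at 17.6 ± 0.764 TPM and DGCR8 at 16.9 ± 2.15 TPM. The ranges of neighbours overlapped for TNRC6A and AGO2, for AGO2 and AGO1, for TNRC6B and AGO3, and for AGO3 and DGCR8, so the order within these pairs was not beyond the spread. AGO4 at 13.1 ± 1.22 TPM and TNRC6C at 9.86 ± 0.688 TPM were the lowest.

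With DOX, DROSHA was still the highest at 112 ± 2.93 TPM, followed by DICER1 at 79.0 ± 4.84 TPM and XPO5 at 45.3 ± 3.49 TPM, each apart from the next. TNRC6A went from place 5 to place 10 of the 13 genes, at 22.2 ± 1.93 TPM. TNRC6B at 26.5 ± 2.80 TPM, TARBP2 at 25.1 ± 1.37 TPM and DGCR8 at 23.4 ± 2.24 TPM preceded it, and each neighbour in this run overlapped with the next.

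The genes whose log2 CPM over the 6 libraries followed DROSHA most closely were SLC39A10 (Pearson r 0.999, log2 fold change -0.81), UBE2Q2 (r 0.999, log2 fold change -1.19) and AGFG1 (r 0.999, log2 fold change -0.73). These are descriptions over 6 libraries that form 2 groups, so any gene that fell by a steady amount scores high. GENCODE 29 lists 8 pseudogenes named after UBE2Q2, which can share reads with it, and none named after any of the 10 genes.

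Partners and effectors of the pathway were counted in 6 lists, which held 80 tested genes. Of these, 6 were higher and 14 lower with DOX, or 25%, which is close to the 26.7% of all genes tested. Shares over all genes are given for edgeR only, so list counts by DESeq2 or at an unadjusted p have no background here.

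None of the 13 cofactors of nuclear processing was higher by edgeR, by DESeq2 or at an unadjusted p under 0.05. By edgeR 30.8% of the list was called, against 26.7% of all genes tested (13.0% higher and 13.7% lower). The list median was -0.10 on the log2 scale, and 4 cofactors were lower. They were NCBP1, the large cap-binding subunit (-0.44, edgeR adjusted p 0.000235), DDX17, an RNA helicase of the Microprocessor (-0.38, edgeR adjusted p 4.37e-05), HNRNPA2B1, an RNA-binding protein (-0.27, edgeR adjusted p 0.00647), and ERH (-0.21, edgeR adjusted p 0.0238). The call for ERH was lost when replicate 1 or 3 of either group was left out, with values from -0.13 to -0.22, and GENCODE 29 lists 2 pseudogenes named after it.

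Among the 15 partners in export, dicing and loading, none was higher by edgeR, by DESeq2 or at an unadjusted p under 0.05. By edgeR 6 were lower, or 40.0%, against 26.7% of all genes called in either direction, 13.0% higher and 13.7% lower. The list median was -0.12. The co-chaperone gene FKBP4 was lower by the most (-0.57, edgeR adjusted p 1.29e-05), then PRKRA, the chaperone gene HSP90AA1 (-0.36, edgeR adjusted p 0.000976) and the chaperone gene HSPA8 (-0.32, edgeR adjusted p 0.0121). PTGES3, which encodes the co-chaperone p23, and XPO1, which encodes the export receptor for many proteins, were the others. HSPA8 did not pass in DESeq2 (adjusted p 0.156), and its log2 fold change was -0.16 without DOX-negative replicate 3 (edgeR adjusted p 0.107) and -0.27 without DOX-positive replicate 3 (edgeR adjusted p 0.0651). PTGES3 did not pass without DOX-negative replicate 3 (-0.18, edgeR adjusted p 0.0662). GENCODE 29 lists 17 pseudogenes named after HSPA8, 5 after PTGES3 and 5 after FKBP4.

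The GW182 proteins hand a target to deadenylases and decapping factors. Of 26 such effectors 2 were higher and 3 lower, with a median of -0.026. This was 19.2% of the list, below the 26.7% of all genes tested. CNOT6, a deadenylase subunit of CCR4-NOT, was at 179, 173 and 164 CPM without DOX and at 106, 111 and 106 CPM with DOX. It fell to 62.7% without overlap, and the log2 fold change was -0.67 (edgeR SE 0.0650, adjusted p 8.88e-08). CNOT7, another deadenylase subunit of the complex, fell as well (-0.44, edgeR adjusted p 5.74e-05), and GENCODE 29 lists 2 pseudogenes named after it.

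PAN3, a subunit of the PAN2-PAN3 deadenylase, was lower (-0.29, edgeR adjusted p 0.0127), but not without DOX-negative replicate 1 (edgeR adjusted p 0.0656) or DOX-positive replicate 2 (edgeR adjusted p 0.0555). The decapping genes EDC3 (0.29, edgeR adjusted p 0.0116) and DCP1A (0.23, edgeR adjusted p 0.0324) were higher on the count scale, while on the deposited TPM scale they were at -0.092 and -0.15. The median of all genes on that scale was -0.34. On TPM rescaled without 5 short noncoding RNAs, EDC3 was at 0.27 (limma adjusted p 0.0448) and DCP1A at 0.20 (limma adjusted p 0.0869). EDC3 lost its call without DOX-negative replicate 1 (0.21, edgeR adjusted p 0.107). DCP1A lost its call when DOX-negative replicate 1 or 2, or DOX-positive replicate 1 or 3, was left out, with values from 0.17 to 0.24.

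Of 15 genes for tailing and turnover of small RNAs, 12 were tested and their log2 fold changes lay between -0.14 and 0.091. None passed in edgeR or DESeq2, and none had an unadjusted edgeR p under 0.05. Over all genes tested 26.7% passed in edgeR. In the PIWI pathway, which acts mainly in the germline, 4 of 12 genes were tested. None passed in edgeR or DESeq2, against the same 26.7% in edgeR, and 1 had an unadjusted edgeR p under 0.05. With 4 genes tested, the absence of calls says little. PIWIL1, PIWIL3 and ASZ1 had 0 counts in every library.

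**Figure D4:**
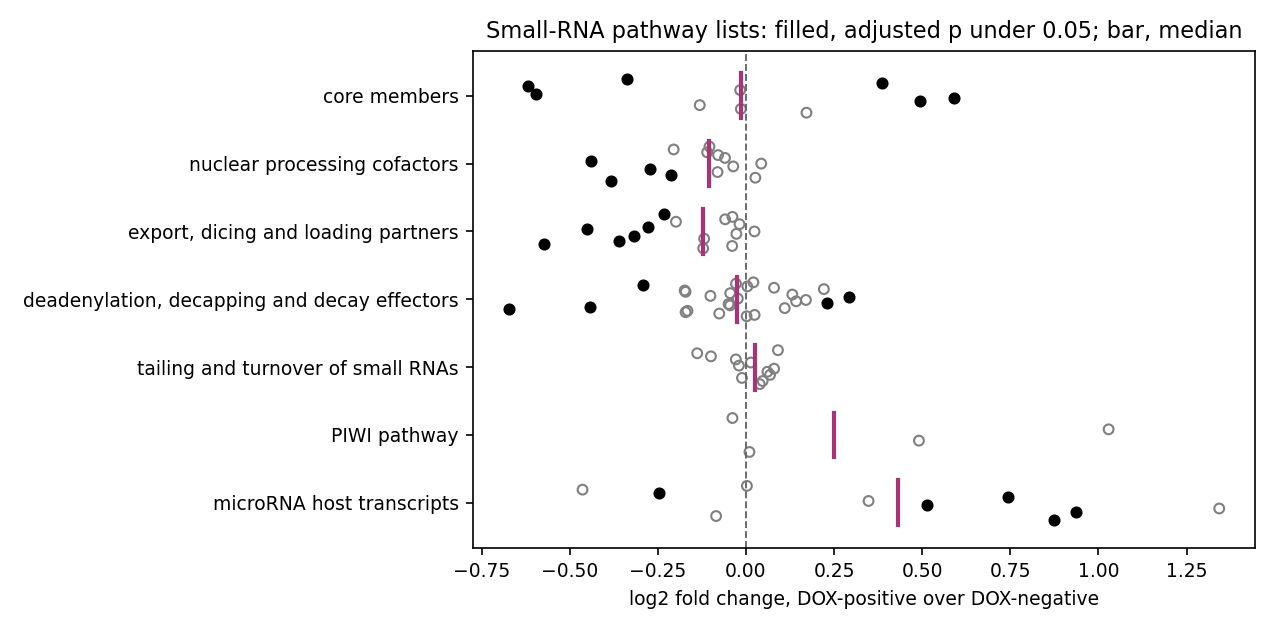
Log2 fold change of DOX-positive over DOX-negative libraries (edgeR) for the 10 small-RNA genes (core members) and for each tested gene of 6 pathway lists; filled points have an adjusted p under 0.05 and bars are medians. Changes of the core members lie on both sides of 0, those past the threshold among nuclear cofactors and among export, dicing and loading partners lie below 0, and tailing and turnover genes have no filled point. Over all genes tested, 13.0% were higher and 13.7% lower at this threshold.

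MicroRNA host transcripts, the long RNAs whose exons or introns hold microRNA hairpins, were listed as 18 genes, of which 15 were in the table and 10 were tested. With DOX, 4 were higher and 1 lower, against 13.0% and 13.7% of all genes tested. The median log2 fold change of the 10 tested was 0.43, against -0.0034 for all genes. It includes MIR210HG, named after its values were seen, with 2, 17 and 4 counts without DOX and 31, 17 and 11 with DOX. Such a gene passes the filter on low counts mainly through the DOX-positive libraries. Hosts too low to test do not enter the median, and the part of the filter in it was not tested. MIR17HG, the host of the miR-17-92 cluster (chr13), had 68, 63 and 56 counts without DOX and 158, 101 and 96 with DOX. Every DOX-positive library was above every DOX-negative one, with means of 3.25 ± 0.479 and 6.21 ± 0.833 CPM (SD, n = 3 each) and a log2 fold change of 0.94 (edgeR SE 0.193, adjusted p 0.000921).

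MIR100HG (0.88, SE 0.214, edgeR adjusted p 0.00394), MIR34AHG (0.74, SE 0.205, edgeR adjusted p 0.00975) and MIR22HG (0.51, SE 0.108, edgeR adjusted p 0.00110) were the other host transcripts that rose. MIR100HG did not pass on TPM rescaled without 5 short noncoding RNAs (0.44, limma adjusted p 0.0814), and MIR17HG was at 0.64 there (limma adjusted p 0.0196). MIR34AHG did not pass without DOX-positive replicate 1 (0.61, edgeR adjusted p 0.0752). MIR4435-2HG fell by 0.25 on the log2 scale (edgeR adjusted p 0.0161), and this call was lost when replicate 1 or 3 of either group was left out, with values from -0.25 to -0.23. The microRNAs lie in exons of MIR17HG, MIR22HG and MIR34AHG. They lie in introns of MIR100HG and MIR4435-2HG, and spliced RNA does not hold those hairpins. The level of a host transcript in a poly(A)-selected library says nothing direct about the mature microRNA. The part of the lower DROSHA level in these changes was not tested.

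The mature microRNAs of the leading arms in MIR17HG are shown, from RefSeq (GRCh38.p14) with bases 2 to 8 in capitals, since they are the products of the host transcript that changed most among those past the threshold. They lie on the plus strand of chromosome 13, from chr13:91350618-91350640 for the first to chr13:91351361-91351382 for the last.
hsa-miR-17-5p: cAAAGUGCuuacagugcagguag
hsa-miR-20a-5p: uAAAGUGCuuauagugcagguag
hsa-miR-18a-5p: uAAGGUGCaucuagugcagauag
hsa-miR-19a-3p: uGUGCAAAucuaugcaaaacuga
hsa-miR-19b-3p: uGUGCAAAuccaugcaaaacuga
hsa-miR-92a-3p: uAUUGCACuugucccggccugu
The seed AAAGUGC is shared by miR-17-5p and miR-20a-5p, and GUGCAAA by miR-19a-3p and miR-19b-3p, while miR-18a-5p and miR-92a-3p have seeds of their own.

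An earlier scan of 3′UTRs in these data singled out the heptamer ATCAGTA, so its presence in the small-RNA genes is a description and no independent evidence. The transcripts read, on the sense strand, were principal (APPRIS) protein-coding transcripts of the GENCODE 29 basic set with a 3′UTR of at least 50 bases. For each gene the transcript with the longest 3′UTR was taken. In these the heptamer occurs in the 3′UTR of 1209 of 12085 tested genes, or 10.0%, and anywhere in the transcript of 2058, or 17.0%. Among the 10 small-RNA genes it occurs in the 3′UTR of AGO1 (1 time), AGO3 (3 times) and TNRC6A (1 time), and before the 3′UTR of DROSHA and DICER1 (1 time each). The median 3′UTR of the 10 genes is 3345 bases long against 1160 for all genes tested, and longer 3′UTRs hold any heptamer more often. The sites are shown for the genes with the lowest edgeR p that hold one, with the heptamer in capitals and 10 bases on each side.
DROSHA, transcript position 742: caggttaattATCAGTAccctccgggc
DICER1, transcript position 1712: gctggcttatATCAGTAgcaatttcat
TNRC6A, 3′UTR position 1269: taaagccgaaATCAGTAactatgcata
AGO1, 3′UTR position 5958: ataccaacagATCAGTAtgtgcaaata
Of these genes DROSHA and TNRC6A fell, DICER1 rose and AGO1 did not pass the threshold. AGO3, with the heptamer at 3′UTR positions 2632, 9998 and 15693, did not pass it either. These letters do not occur in the transcripts of DGCR8, XPO5, TARBP2, AGO2 and TNRC6B used here.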

How the data were processed

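RNA was measured in 6 libraries (TruSeq Stranded mRNA). The authors deposited whole-number read counts per gene (28008 genes) and TPM values (25546 genes). Their columns write TR for the resistant line where the sample titles write DR, so replicate number and DOX state, a combination unique to each sample, tied columns to titles. The submitters' processing notes name STAR, DESeq2 and GRCh38 (hg38). Versions, annotation, the gene lengths behind the TPM and the use of strand in counting are not given in the sources used here. Between 34.4% and 64.4% of a library's deposited TPM belonged to RPPH1, RN7SK and the RN7SL genes 1 to 3 (5 short noncoding RNAs), least in DOX-negative replicate 2, so levels between genes were read from TPM rescaled without them.

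Counts were filtered with filterByExpr, scaled with TMM (factors 0.986 to 1.03) and tested with the quasi-likelihood F test of edgeR 4.0.16 in R 4.3.3, two-sided, with group as the only term and Benjamini-Hochberg adjustment over all genes tested at a threshold of 0.05. Standard errors are the absolute log2 fold change over the square root of F, and 95% intervals use the degrees of freedom of the test. CPM are TMM-scaled. The fits were tested on simulated data. Counting error alone sets a floor of 3 counts, or 0.129 to 0.199 CPM. Each library counted as a replicate. Libraries of the same group differed beyond counting error (chi-square per degree of freedom 3.78 to 20.2 for a pair). Technical differences can give this too, so the check cannot show that the cultures were independent.

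The members and lists were chosen with earlier results of these data known. Genes named were all members, MUC1, list genes past the threshold (values for at most 4 rises and 4 falls per list), AGO4, TNRC6C and PRKRA, and the 3 genes most correlated with the member of lowest p. For 3 list genes (TUT4, TUT7 and TENT2) older symbols were matched, and MIR23AHG, MIR29B2CHG and MIR222HG were not matched. Gene positions and transcripts are from GENCODE 29. Alternatives were DESeq2 1.42.0, other scalings and filters, a replicate block, thinned counts, limma 3.58.1 on log2 TPM with a pseudocount of 1 or 0.1 (mean TPM of at least 0.5 unless stated), and leaving out each library. A list of prostate luminal markers is not reported here.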

Additional observations from a re-analysis of the deposited data

How the results depend on the processing

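The same 6 small-RNA genes passed in all 7 other count-based settings (DESeq2, total counts, RLE factors, a minimum of 10 counts per library, no filter, thinned counts and the replicate block), and in each of the 6 fits without a library, when 6 to 7 passed. Replicate numbers did not pair the libraries (correlations of deviations -0.019, -0.095 and -0.027). The replicate block gave 3158 changed genes against 3816, 6 small-RNA genes, 18 pathway genes against 20, and lost the calls for ERH and DCP1A. On log2(TPM + 1), log2(TPM + 0.1) and unfiltered log2(TPM + 1), limma called 329, 354 and 3 genes, 1, 2 and 0 small-RNA genes, and 1, 1 and 0 pathway genes, and unfiltered MUC1 was at -2.48 (limma adjusted p 0.359). The median of all genes was then shifted by -0.34, -0.39 and -0.090, and 9.42%, 8.76% and 33.3% of calls were higher against 48.8%. Against the shift on log2(TPM + 1), TNRC6B was at 0.33, AGO1 at 0.13, DGCR8 at 0.42 and DICER1 at 0.52. In the order of these 3 TPM settings, sign changes were AGO1 at -0.21, -0.22 and -0.21, TNRC6B at -0.011, -0.0051 and -0.011, DCP1A at -0.15, -0.16 and -0.15, and EDC3 at -0.092, -0.095 and -0.092. On rescaled TPM, 5 small-RNA genes passed, without TNRC6B, and HSPA8 (-0.33), DCP1A (0.20) and MIR100HG (0.44) did not pass. TARBP2 was at 0.015 after thinning. DCP1A did not pass with total counts (0.20) or thinned counts (0.22).

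Leaving out each library in turn gave ranges of -0.096 to 0.068 for TARBP2, -0.058 to 0.021 for AGO2, -0.11 to 0.021 for AGO4, -0.63 to -0.57 for DROSHA, 0.41 to 0.56 for DGCR8, -0.39 to -0.29 for XPO5, 0.56 to 0.63 for DICER1, -0.68 to -0.56 for TNRC6A and 0.30 to 0.46 for TNRC6B. Changed genes numbered 2784 to 3645, and pathway genes 15 to 22. The TNRC6A share differed by -15.2 to -13.1 and the AGO2 share by -1.51 to -0.489 percentage points. The cause of these differences was not tested.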
